A study of Drosophila melanogaster with 13 samples.

Results

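The genes described here make, package, recapture and break down the inhibitory transmitter GABA in the fly head. They are Gad1, VGAT, Gat and Gabat, and the members are the probe sets whose only gene symbol in the platform annotation is one of these names. This rule found 4 probe sets, 1 per gene, among 18769 tested probe sets on an Affymetrix Drosophila array that measured 11982 named genes. Gad1, measured by probe set 1627818_s_at, and Gabat, measured by 1626489_s_at, lie on chromosome arm 3L, VGAT, measured by 1625228_at, lies on 2R, and Gat, measured by 1633033_s_at, lies on chromosome 4.

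GABA is the main inhibitory transmitter of the insect central nervous system. Glutamate decarboxylase, encoded by Gad1, makes it from glutamate, the vesicular transporter VGAT loads it into synaptic vesicles, the membrane transporter Gat clears it from the extracellular space and is known in flies as a glial protein, and the mitochondrial GABA transaminase Gabat converts it to succinic semialdehyde. Released GABA acts on ligand-gated chloride channels such as Rdl and on G protein-coupled GABA-B receptors.

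RNA came from adult heads of flies kept at 25 °C, and 4 genotypes were compared with 3 biological replicates and 3 arrays each. The egg flies were yw; egg235/CyO, so they carried an allele of the histone H3 lysine 9 methyltransferase gene egg (eggless, also called SETDB1) over the CyO balancer. The Su(var)3-9 flies were yw; +/CyO; Su(var)3-906, with an allele of the related methyltransferase gene Su(var)3-9, and the double mutants were yw; egg235/CyO; Su(var)3-906. The controls were yw; +/CyO, so yw and the CyO balancer were common to all 4 groups. Sex, age and the number of heads per sample are not stated in the labels, and no probe set carries the symbol egg or Su(var)3-9, so the genotype labels were not checked against the mutated genes. The comparisons ask how mutation of each methyltransferase gene, alone and together, alters head transcripts.

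Values are log2 RMA expression (robust multi-array average, a summary of several probes per probe set), where 1 unit is a doubling, and levels of different probe sets are not compared because probes differ in their response. Changes are differences of group means from limma, given with their standard error (SE), and a change was called at a Benjamini-Hochberg adjusted p below 0.05 over all 18769 probe sets. The number of arrays limits the precision, and the p-values measure the spread between these samples. The 3 comparisons with the control share the same control arrays.

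The arrays differed in more than the GABA genes. Of 18769 probe sets, 32.0% were called higher and 18.9% lower in egg heads than in control heads, 44.4% higher and 17.3% lower in Su(var)3-9 heads, and 40.4% higher and 17.3% lower in double mutant heads. Markers of neurons were higher in all 3 mutants (13 of 13 genes in each), and their median log2 level was 10.71 to 10.76 on egg arrays, 10.30 to 10.38 on Su(var)3-9 arrays and 10.39 to 10.41 on double mutant arrays, against 9.59 to 9.92 on control arrays. Of 12 glial markers, 10 were called higher in egg, 8 higher and 1 lower in Su(var)3-9, and 9 higher in double mutant heads. Their median log2 level was 9.37 to 9.42 in egg, 9.16 to 9.18 in Su(var)3-9 and 9.16 to 9.28 in double mutant heads, against 8.65 to 8.93 in control heads. Most markers of testis, gut and accessory gland, tissues that a head sample should lack, moved the other way, as did most muscle markers. Of 20 testis markers, 18 were called lower in egg, 17 in Su(var)3-9 and 17 in double mutant heads, and the log2 of their summed signal was 12.02 to 12.16, 9.12 to 9.84 and 9.66 to 11.01 in these groups, against 14.30 to 14.88 in control heads. Of 20 gut markers, 12, 18 and 18 were called lower and 1, 0 and 1 higher in egg, Su(var)3-9 and double mutant heads, with a log2 summed signal of 13.57 to 14.44, 9.60 to 12.31 and 10.02 to 11.79, against 15.65 to 16.04 in control heads. Of 18 accessory gland markers 13, 16 and 16 were lower and 1, 1 and 1 higher in egg, Su(var)3-9 and double mutant heads, and of 14 muscle markers 12, 11 and 11 were lower and 0, 1 and 1 higher. Of 10 photoreceptor markers 10, 6 and 8 were called higher in egg, Su(var)3-9 and double mutant heads. Of 10 head fat body markers 3, 5 and 5 were called higher and 1, 0 and 0 lower in these groups. The fat body marker Lsp2, a larval serum protein gene, was lower in egg heads (change -1.68) and higher in Su(var)3-9 and double mutant heads (1.65 and 1.73). The fat body markers Fbp1 and Fbp2 were higher in Su(var)3-9 heads (3.90 and 3.63) and double mutant heads (2.98 and 3.40). In egg heads their changes were -0.04 and -0.18 and not called. Of the 10 fat body markers, 5 were not called in Su(var)3-9 and 5 in double mutant heads. RMA values have no true zero, so no marker can be called absent. Because these are bulk samples, more cells of a type and more RNA per cell cannot be told apart, and the part of tissue composition in the changes below was not tested. Each GABA gene is therefore given both as deposited and relative to the median of the neuronal and of the glial markers on the same array. These scalings shift every gene: the median change of all probe sets was -0.87, -0.36 and -0.44 in egg, Su(var)3-9 and double mutant heads relative to the neuronal markers and -0.54, -0.19 and -0.25 relative to the glial markers, against 0.09, 0.21 and 0.18 as deposited.

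**Figure D1:**
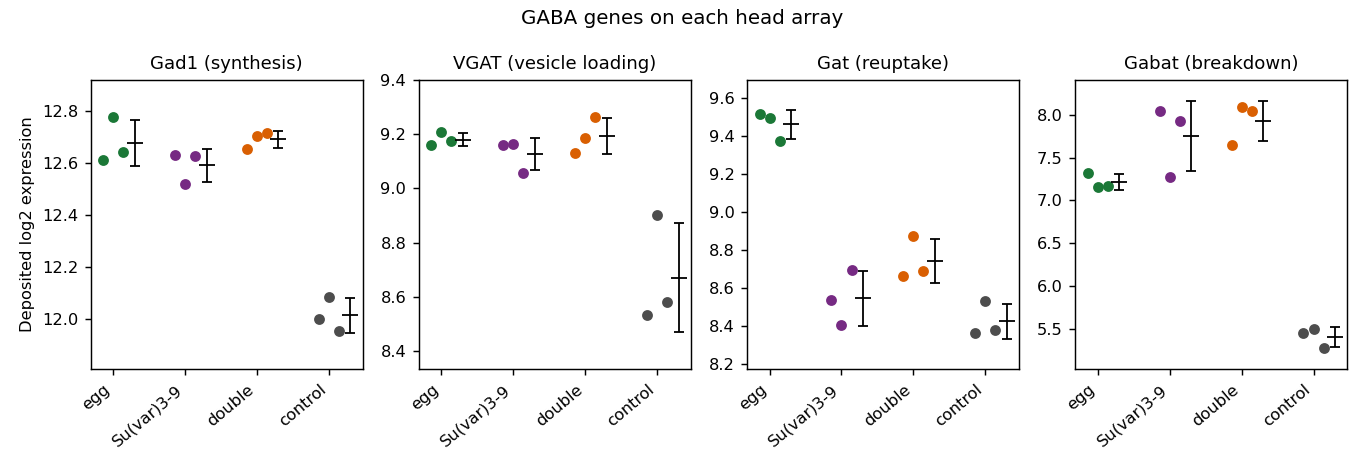
Deposited log2 expression of Gad1, VGAT, Gat and Gabat on each array (points), with the group mean and SD beside them (bars, n = 3 arrays per group); each panel has its own vertical scale. Egg, Su(var)3-9 and double mutant arrays lie above all control arrays in every panel except Gat, where Su(var)3-9 arrays overlap the control.

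Against the control, all 4 GABA genes were called higher in egg heads and in double mutant heads, and Gad1, VGAT and Gabat in Su(var)3-9 heads. These counts of 4, 4 and 3 of 4 stand beside the 32.0%, 40.4% and 44.4% of all probe sets called higher, and none of the 4 was called lower. The median change of the 4 genes was 0.85 in egg, 0.52 in Su(var)3-9 and 0.60 in double mutant heads, against 0.09, 0.21 and 0.18 over all probe sets. With only 4 genes these shares describe the pathway and are not a test of it.

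Gad1, the biosynthetic enzyme, read 12.609, 12.777 and 12.642 on the egg arrays, 12.629, 12.517 and 12.626 on the Su(var)3-9 arrays, and 12.654, 12.701 and 12.714 on the double mutant arrays, against 12.002, 12.087 and 11.957 on the control arrays. Every mutant array lay above every control array, and the mutant groups lay close together. The change was 0.66 ± 0.07 in egg heads (a 1.58-fold higher level, adjusted p = 8.3e-06), 0.58 ± 0.07 in Su(var)3-9 heads (1.49-fold, adjusted p = 2.51e-05) and 0.67 ± 0.07 in double mutant heads (1.60-fold, adjusted p = 6.26e-06). Set against the neuronal markers, Gad1 turned direction in egg heads, where it stood at -0.31 (adjusted p = 0.00569). On that scale it differed by 0.0021 in Su(var)3-9 heads (adjusted p = 0.985) and by 0.05 in double mutant heads (adjusted p = 0.638). Relative to the glial markers it stood at 0.03 in egg heads (adjusted p = 0.755), 0.18 in Su(var)3-9 heads (adjusted p = 0.121) and 0.24 in double mutant heads (adjusted p = 0.035).

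VGAT, the vesicle loader, had mutant group means between 9.13 and 9.19, against 8.67 in control heads. Its log2 levels were 9.16, 9.21 and 9.17 in egg, 9.16, 9.16 and 9.06 in Su(var)3-9, and 9.13, 9.19 and 9.26 in double mutant heads, against 8.53, 8.90 and 8.58 in control heads. Again no mutant array overlapped the control, although control replicate 2 stood above its 2 group mates. VGAT was higher by 0.51 ± 0.09 in egg heads (1.42-fold, adjusted p = 0.000491), by 0.46 ± 0.09 in Su(var)3-9 heads (1.37-fold, adjusted p = 0.00111) and by 0.52 ± 0.09 in double mutant heads (1.44-fold, adjusted p = 0.000414). These calls depended on scaling. With cyclic loess normalization between arrays the changes were 0.19 in egg heads (adjusted p = 0.0811), 0.18 in Su(var)3-9 heads (adjusted p = 0.0954) and 0.22 in double mutant heads (adjusted p = 0.048). Relative to the neuronal markers VGAT was lower in egg heads, at -0.46 (adjusted p = 0.000266), and stood at -0.12 in Su(var)3-9 heads (adjusted p = 0.26) and -0.10 in double mutant heads (adjusted p = 0.304). Relative to the glial markers it stood at -0.12 (adjusted p = 0.211), 0.06 (adjusted p = 0.607) and 0.09 (adjusted p = 0.382) in egg, Su(var)3-9 and double mutant heads.

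Gat, the reuptake transporter, was the member that separated egg heads from the other genotypes. It read 9.51, 9.49 and 9.37 in egg, 8.54, 8.40 and 8.69 in Su(var)3-9, and 8.66, 8.87 and 8.69 in double mutant heads, against 8.36, 8.53 and 8.38 in control heads. The egg arrays lay above every other array, the double mutant arrays lay above the control arrays by a narrow margin, and the Su(var)3-9 and control arrays overlapped. Gat was higher by 1.04 ± 0.09 in egg heads (2.05-fold, adjusted p = 1.65e-06) and by 0.32 ± 0.09 in double mutant heads (1.25-fold, adjusted p = 0.0113). In Su(var)3-9 heads the change was 0.12 ± 0.09, with a 95% interval of -0.08 to 0.32 (adjusted p = 0.264). With arrays centred on their medians that change was 0.49 and called (adjusted p = 0.000223). With cyclic loess it was -0.17 in Su(var)3-9 heads (adjusted p = 0.143) and 0.0033 in double mutant heads (adjusted p = 0.98), and 0.71 and called in egg heads. Relative to the glial markers Gat stood at 0.41 in egg heads (adjusted p = 0.0014), -0.28 in Su(var)3-9 heads (adjusted p = 0.0256) and -0.11 in double mutant heads (adjusted p = 0.301). The glial markers did not move as one: in Su(var)3-9 heads 8 of 12 were called higher, and alrm was called lower (change -0.27). The changes of alrm were 0.63 in egg heads and 0.10 in double mutant heads, so the result for Gat depends on the glial markers used. Against the neuronal markers it stood at 0.07 in egg heads (adjusted p = 0.549), -0.45 in Su(var)3-9 heads (adjusted p = 0.00359) and -0.31 in double mutant heads (adjusted p = 0.0232).

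Gabat, the catabolic transaminase, had the largest change of the 4 genes in each mutant. Its log2 levels were 7.33, 7.16 and 7.17 in egg, 8.05, 7.28 and 7.93 in Su(var)3-9, and 7.65, 8.09 and 8.04 in double mutant heads, against 5.46, 5.50 and 5.27 in control heads. All 9 mutant arrays lay well above the highest control array, by at least 1.66 log2 units, and Su(var)3-9 replicate 2 stood below its 2 group mates. Gabat was higher by 1.81 ± 0.18 in egg heads (3.51-fold, adjusted p = 3.09e-06), by 2.34 ± 0.18 in Su(var)3-9 heads (5.07-fold, adjusted p = 2.25e-07) and by 2.52 ± 0.18 in double mutant heads (5.72-fold, adjusted p = 1.3e-07). Its control levels lay below the array medians (5.71 to 6.14) and were not shown to be above background, so these folds rest on a low control signal. Only 31, 43 and 19 of the 18769 probe sets rose by more than Gabat in egg, Su(var)3-9 and double mutant heads. Decreases were outside this count, and many testis and gut markers fell by more than Gabat rose. Unlike the other members it was called higher in all 3 mutants under every scaling tried, with 0.84 in egg (adjusted p = 0.00056), 1.77 in Su(var)3-9 and 1.89 in double mutant heads relative to the neuronal markers, and 1.18, 1.94 and 2.08 in these groups relative to the glial markers. No scaling to the fat body markers was run.

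**Figure D2:**
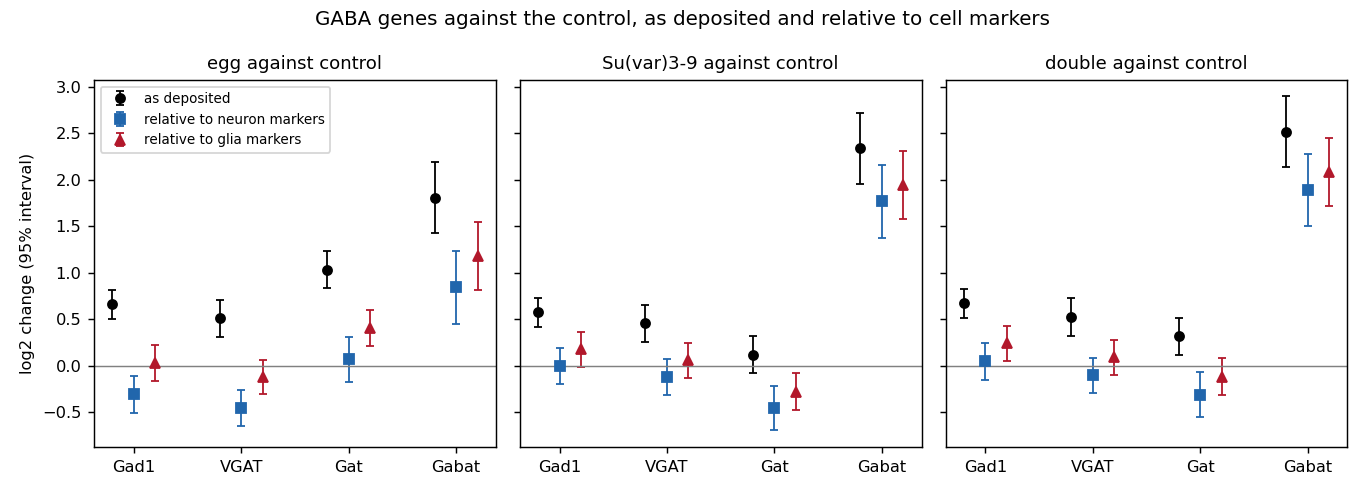
Log2 change against the control with 95% intervals for the 4 GABA genes in egg, Su(var)3-9 and double mutant heads, as deposited (circles), relative to the median neuronal marker (squares) and relative to the median glial marker (triangles). Gabat stays above 0 in all 9 estimates, whereas Gad1, VGAT and Gat move to about 0 or below relative to neuronal markers.

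The mutants were also compared with each other. Between double mutant and egg heads, 2 of the 4 genes were called, against 15.5% of all probe sets called in either direction. Gabat was higher in double mutant heads by 0.71 ± 0.18 (1.63-fold, adjusted p = 0.0158) and Gat was lower by 0.72 on the log2 scale (change -0.72 ± 0.09, adjusted p = 0.000269), and neither gene's groups overlapped. The Gabat call was lost without egg replicate 2 or 3 or double mutant replicate 2 or 3, with an adjusted p of 0.0563 to 0.0634. For Gad1 the double mutant minus egg difference was 0.01, with a 95% interval of -0.14 to 0.17 (adjusted p = 0.924), and for VGAT it was 0.01, with an interval of -0.19 to 0.22 (adjusted p = 0.941).

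Between double mutant and Su(var)3-9 heads, limma called none of the 4 genes, against 5.17% of all probe sets called. None of the 4 had an unadjusted p below 0.05. The differences were 0.10 for Gad1 (95% interval -0.06 to 0.26), 0.07 for VGAT (-0.14 to 0.27), 0.20 for Gat (-0.01 to 0.40) and 0.17 for Gabat (-0.21 to 0.56).

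Between egg and Su(var)3-9 heads, 2 of the 4 genes were called, against 27.3% of all probe sets. Gat was higher in egg heads by 0.91 ± 0.09 (1.89-fold, adjusted p = 1.88e-05), without overlap. Gabat was lower by 0.53 on the log2 scale (change -0.53 ± 0.18, adjusted p = 0.0402), but the groups overlapped, and this call was lost without any 1 of the 3 egg arrays or without Su(var)3-9 replicate 1 or 3. It was also lost with the replicate number as a block (adjusted p = 0.0649) and in a fit of the egg and Su(var)3-9 arrays alone (adjusted p = 0.0665). The Gad1 difference was 0.09 (adjusted p = 0.394) and the VGAT difference 0.05 (adjusted p = 0.69).

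The interaction term sets the effect of egg in Su(var)3-9 flies against its effect in control flies, so a negative value means that the double mutant change was smaller than the sum of both single changes. The term includes the control mean, so a gene about equally high in every mutant also falls below 0. It was below 0 and called for all 4 genes, against 24.9% of all probe sets. Its size was -0.56 ± 0.10 for Gad1 (adjusted p = 0.00086), -0.44 ± 0.13 for VGAT (adjusted p = 0.0169), -0.84 ± 0.13 for Gat (adjusted p = 0.000293) and -1.63 ± 0.25 for Gabat (adjusted p = 0.000231). With neuronal scaling the term turned positive for Gad1, at 0.35 (adjusted p = 0.0207), and for VGAT, at 0.47 (adjusted p = 0.00388), and it was 0.07 for Gat (adjusted p = 0.67) and -0.72 for Gabat (adjusted p = 0.018).

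GABA receptors, the targets of the released transmitter, were mostly higher as deposited. Of 6 measured receptor genes, 5 were called higher in egg heads, 6 in Su(var)3-9 heads and 5 in double mutant heads, with none lower, against 32.0%, 44.4% and 40.4% of all probe sets called higher. Their median changes were 0.73, 0.65 and 0.62, against 0.09, 0.21 and 0.18 over all probe sets. Rdl, the main ionotropic GABA receptor subunit of the fly, was higher by 0.82 ± 0.09 in egg (adjusted p = 8.12e-06), 0.65 ± 0.09 in Su(var)3-9 (adjusted p = 5.57e-05) and 0.57 ± 0.09 in double mutant heads (adjusted p = 0.000159). Lcch3, a related subunit, was higher by 0.63, 0.66 and 0.66, each ± 0.09, in egg, Su(var)3-9 and double mutant heads. CG8916, a further member of the ligand-gated channel family, was higher by 0.84, 0.77 and 0.78, each ± 0.11, in these groups. Grd, another channel subunit, was dim, with group means of 4.33 in egg, 4.58 in Su(var)3-9 and 4.67 in double mutant heads, against 4.20 in control heads, all under the 40th percentile of probe set means (5.05), and it was not shown to be above background. Its fitted values were higher by 0.38 ± 0.12 in Su(var)3-9 heads (adjusted p = 0.0162) and 0.47 ± 0.12 in double mutant heads (adjusted p = 0.00487), and the egg change was 0.13 ± 0.12 (adjusted p = 0.41). Among the metabotropic receptors, GABA-B-R3 was higher by 0.83, 0.79 and 0.66, each ± 0.12, in egg, Su(var)3-9 and double mutant heads. GABA-B-R1 was higher by 0.32 ± 0.09 in egg heads (adjusted p = 0.0104) and 0.52 ± 0.09 in Su(var)3-9 heads (adjusted p = 0.00036), and its change in double mutant heads was 0.22 ± 0.09 (adjusted p = 0.0589). Relative to the neuronal markers none of the 6 was higher in any mutant, and 3 were lower in egg, 0 in Su(var)3-9 and 1 in double mutant heads. Relative to the glial markers 2, 4 and 2 were higher and 2, 0 and 0 lower in these groups. Both scalings lowered the median change of all probe sets, and these counts were not set against the share called under them. Between the mutants limma called none of the 6 in any of the 3 pairs. Of all probe sets it called 15.5% between double mutant and egg, 5.17% between double mutant and Su(var)3-9, and 27.3% between egg and Su(var)3-9 heads. At an unadjusted p below 0.05 there were 2 between double mutant and egg heads, 1 between double mutant and Su(var)3-9 heads and 1 between egg and Su(var)3-9 heads. This threshold is looser than that of the calls, and no share of all probe sets is given for it.

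Genes that supply or recycle glutamate, the precursor of GABA, moved in both directions. Of 8 measured, 4 were called higher and 2 lower in egg heads, 2 higher and 2 lower in Su(var)3-9 heads, and 4 higher and 1 lower in double mutant heads, with median changes of 0.22, 0.13 and 0.24. Over all probe sets 32.0%, 44.4% and 40.4% were called higher and 18.9%, 17.3% and 17.3% lower in these comparisons. None was higher relative to the neuronal markers, and 7, 6 and 5 were lower in egg, Su(var)3-9 and double mutant heads. That scaling lowered the median change of all probe sets, and these counts were not set against the share called under it. Got2, a glutamate-oxaloacetate transaminase that interconverts glutamate and aspartate, was lower in egg heads by 0.99 on the log2 scale (change -0.99 ± 0.07, adjusted p = 3.32e-07). Its change was 0.05 in Su(var)3-9 heads (adjusted p = 0.557) and -0.11 in double mutant heads (adjusted p = 0.183), and the double mutant level was above the egg level by 0.88. Got1, the other measured transaminase of this kind, was lower as deposited in all 3 mutants, with changes of -0.73, -0.41 and -0.36 in egg, Su(var)3-9 and double mutant heads, each ± 0.08. Eaat2, an acidic amino acid transporter, was higher by 0.83, 0.36 and 0.56, each ± 0.11, in these groups, and Gs2, a glutamine synthetase, by 0.75, 0.36 and 0.53, each ± 0.07. Gs1, the other glutamine synthetase, was higher in double mutant heads by 0.33 ± 0.12 (adjusted p = 0.0307), and Ogdh, a subunit of the oxoglutarate dehydrogenase complex, was lower in Su(var)3-9 heads (change -0.39 ± 0.09, adjusted p = 0.00225). Ssadh, succinic semialdehyde dehydrogenase, takes up the product of Gabat: it was higher by 0.44 ± 0.08 in egg heads (adjusted p = 0.000678), and its changes in Su(var)3-9 and double mutant heads were 0.11 ± 0.08 (adjusted p = 0.256) and 0.19 ± 0.08 (adjusted p = 0.0665).

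Genes of the other transmitter systems show what surrounds the GABA genes. Of 13 measured, 12 were called higher in egg heads, 12 in Su(var)3-9 heads and 10 in double mutant heads, with none lower, against 32.0%, 44.4% and 40.4% of all probe sets called higher. Their median changes were 0.71, 0.68 and 0.71, against 0.09, 0.21 and 0.18 over all probe sets. Gad1 and VGAT changed by less than these medians in egg, Su(var)3-9 and double mutant heads, and Gabat by more. VGlut, the vesicular glutamate transporter, was higher by 0.83, 0.92 and 0.79, each ± 0.13, in egg, Su(var)3-9 and double mutant heads. VAChT, the vesicular acetylcholine transporter, was higher by 0.87, 0.68 and 0.93, each ± 0.16, and ple, the tyrosine hydroxylase of dopamine synthesis, by 0.91, 1.03 and 1.02, each ± 0.11, in these groups. The dopamine transporter gene DAT was higher by 0.69, 0.93 and 0.94, each ± 0.13, the serotonin transporter gene SerT by 0.60, 0.84 and 0.71, each ± 0.14, and prt, which encodes a vesicular transporter, by 0.90, 0.54 and 0.66, each ± 0.12, in egg, Su(var)3-9 and double mutant heads. Tbh, the enzyme that makes octopamine from tyramine, was higher by 1.10 ± 0.12 in egg, 0.33 ± 0.12 in Su(var)3-9 and 0.39 ± 0.12 in double mutant heads. Relative to the neuronal markers 0, 3 and 2 of the 13 were higher and 7, 2 and 3 lower in egg, Su(var)3-9 and double mutant heads. That scaling lowered the median change of all probe sets, and these counts were not set against the share called under it.

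**Figure D3:**
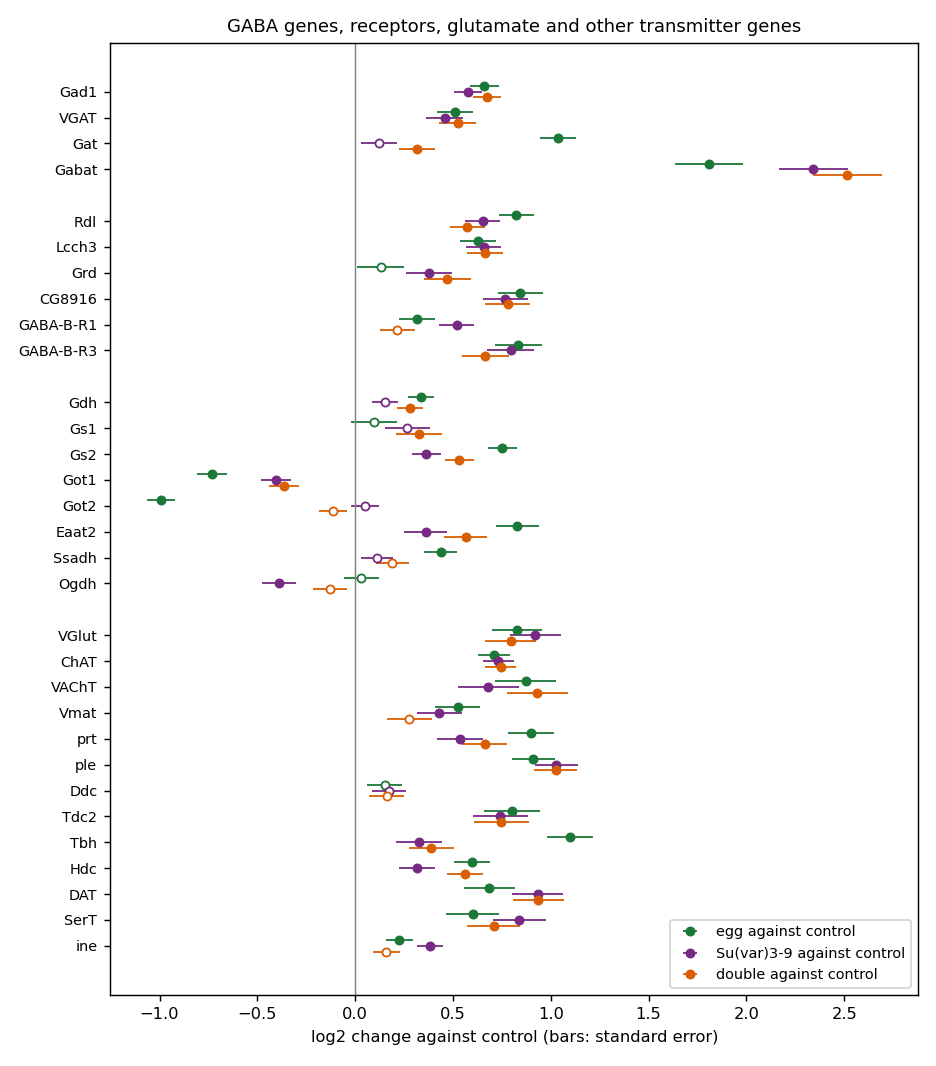
Log2 change against the control, with bars of 1 standard error, as deposited, for the 4 GABA genes, 6 GABA receptors, 8 glutamate genes and 13 genes of other transmitters; filled points were called and open points were not. Gabat lies farthest to the right in all 3 mutants, and Got2 farthest to the left in egg heads.

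Chromosome 4, where Gat lies, is known in flies for its dependence on the egg methyltransferase, so Gat was set beside the 65 measured genes of that chromosome. In egg heads its change of 1.04 stood high, with 6 of the 65 above it and a chromosome median of 0.54. In Su(var)3-9 heads 54 of the 65 lay above its change of 0.12 (median 0.47), and in double mutant heads 50 lay above its change of 0.32 (median 0.55). Called genes on the chromosome numbered 55 higher and 5 lower in egg, 50 higher and 7 lower in Su(var)3-9, and 58 higher and 6 lower in double mutant heads, where 32.0%, 44.4% and 40.4% of all probe sets were called higher. After cyclic loess 36, 28 and 31 were called higher in these groups. The shares above are for the deposited values, and the counts after cyclic loess were not set against a share of all probe sets. Between double mutant and egg heads Gat had the lowest change of the 65, at -0.72 against a median of -0.01, and 4 of the 65 were called higher and 2 lower, against 15.5% of all probe sets called in either direction. Ekar, a glutamate receptor gene beside Gat in the annotation order, was the neighbour most like it: it was higher in egg heads by 1.04, in Su(var)3-9 heads by 0.47 and in double mutant heads by 0.61, and lower in double mutant than in egg heads (change -0.44 ± 0.09, adjusted p = 0.00705). The neighbours were looked at after the values of Gat were seen.

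**Figure D4:**
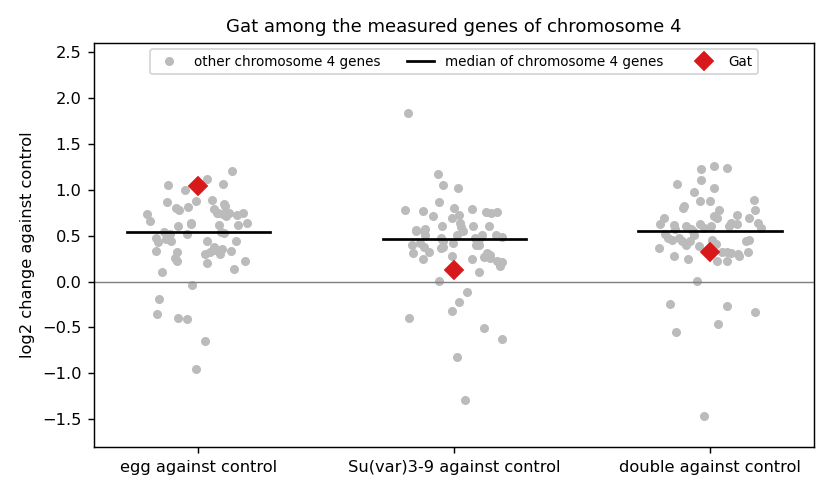
Log2 change against the control of each measured chromosome 4 gene (grey points), with the chromosome median (bars) and Gat (red diamonds), in egg, Su(var)3-9 and double mutant heads. Gat lies near the top in egg heads, at 1.04, and below the median in Su(var)3-9 and double mutant heads, at 0.12 and 0.32.

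Genes whose pattern over the 12 arrays was most like each member were found by the smallest root mean square difference between centred log2 values among 8862 genes. For Gad1 they were SCAR (0.0402), fwe (0.0485) and Cbp53E (0.0535). For VGAT they were CG2540 (0.0543), RabX4 (0.0551) and Ephrin (0.0579), the last of which lies on chromosome 4. For Gat they were vri (0.0786), NtR (0.119) and lectin-24Db (0.131), and vri, which encodes a transcription factor of the circadian clock, changed by 0.99 in egg, 0.03 in Su(var)3-9 and 0.27 in double mutant heads. For Gabat they were spartin (0.268), CG7900 (0.280) and CG13794 (0.301), and spartin changed by 1.47 in egg, 2.11 in Su(var)3-9 and 2.05 in double mutant heads.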

How the data were processed

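Adult fly heads were profiled on Affymetrix Drosophila arrays, and the deposited values are log2 expression. The authors used RMA and limma, per the submitters' processing notes, which give no versions; the array medians were 5.71 to 6.14. Of 13 deposited columns, 12 held values: the column of a second array of control replicate 1 was empty, so each group has 3 arrays. The table held 18952 probe sets, and 183 of them, the manufacturer's controls, were not tested.

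Probe sets were named from the platform annotation, with symbols updated through a RefSeq gene table (Release 6, used only for names, chromosome arms and neighbour order): 13646 probe sets had 1 symbol, 402 several and 4721 none. A gene with several probe sets was represented by the brightest. Gad1, Gat and Gabat probe sets end in _s_at, so their probes match several transcripts.

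Group means of all 4 genotypes were fitted with limma 3.58.1 in R 4.3.3 (lmFit and eBayes, two-sided, 8 residual and 4.162 prior degrees of freedom, no covariates), and p-values were adjusted over 18769 probe sets for each contrast. The fit was tested on simulated data. On simulated arrays with 200 changed probe sets among 18769, it recovered 54% of changes of 0.5 and 92% of changes of 1 log2 unit. In the deposited data a much larger share was called against the control, for egg heads 32.0% higher and 18.9% lower. Recovery with such a share changed was not tested, so these rates hold only for the simulated setting.

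The members and the gene lists were chosen with earlier results of these data known. The text names every GABA receptor measured, up to 4 genes per comparison with the control of the glutamate and other transmitter lists, those with the largest called change (the rule covers the marker lists too, but these are given by counts), and the 3 genes most like each member by brightest probe sets over the 40th percentile of mean signal. Ssadh, Lsp2, Fbp1, Fbp2, alrm, Ekar and the values of other list genes given for comparison were chosen after their values were seen. Some listed genes were not matched to a probe set and are not analysed here. Alternatives were another scaling (array medians, cyclic loess, neuronal or glial markers), a low-signal filter, array weights, a trended robust eBayes step, the mean of the probe sets of a gene, a fit of only the groups compared, a replicate block and leaving out each array. A fit without both replicate 3 of Su(var)3-9 and replicate 2 of the double mutant was added after seeing the data, because their gut marker signal stood above that of their group (log2 summed signal 12.31 against 9.93 and 9.60, and 11.79 against 10.02 and 10.31). Sequences were not used here.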

Additional observations from a re-analysis of the deposited data

Results flagged for a closer look

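For all 4 GABA genes the egg minus control difference exceeded the double mutant minus Su(var)3-9 difference, by limma's test of the interaction. This term includes the control mean, so a gene about equally high in every mutant also falls below 0. Its median was 3.17 for testis markers, 3.20 for accessory gland markers and -0.82 for neuronal markers. The part of the control arrays in the term was not tested. For the members the term was -1.635 for Gabat, -0.8411 for Gat, -0.5618 for Gad1 and -0.4434 for VGAT on the log2 scale. In each case adding egg to Su(var)3-9 moved the gene by less than adding egg to the control, and 24.9% of all probe sets were called below 0 in the same term. The double mutant differed from the control by 2.52 for Gabat, 0.32 for Gat, 0.67 for Gad1 and 0.52 for VGAT. The neuronal markers moved with it: relative to them the term kept its sign for Gabat, at -0.72, and turned positive for Gat, Gad1 and VGAT, at 0.07, 0.35 and 0.47. Relative to the glial markers it was -1.04 for Gabat (adjusted p = 0.0033), -0.24 for Gat (adjusted p = 0.116), 0.04 for Gad1 and 0.15 for VGAT. The part of these markers in the interaction was not tested.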

How the results depend on the processing

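Of 640 values of the 4 GABA genes under alternatives, 587 kept direction and side of the threshold, and 25 changed sign. Of the values that kept their sign, 25 lost the call and 3 gained one. Some values that changed sign also lost or gained a call and are counted only as sign changes. All calls against the control held with each array left out in turn, with adjusted p up to 0.0488 for Gat in double mutant heads, and Gabat stayed called against the control under every alternative run. Scaling moved the rest, and the cause was not tested. Relative to neuronal markers, changes against the control were, in egg heads, -0.3056 for Gad1, -0.4564 for VGAT and 0.0702 for Gat; in Su(var)3-9 heads 0.0021, -0.1164 and -0.4517; and in double mutant heads 0.0479, -0.1029 and -0.3093. Relative to glial markers they were 0.0304 for Gad1 and -0.1203 for VGAT in egg, 0.1767, 0.0582 and, for Gat, -0.2771 in Su(var)3-9, and 0.092 for VGAT and -0.1144 for Gat in double mutant heads. Cyclic loess gave 0.1872 for VGAT in egg, 0.1796 for VGAT and -0.1651 for Gat in Su(var)3-9, and 0.0033 for Gat in double mutant heads. Centring on array medians gave a call for Gat in Su(var)3-9 heads, at 0.4931. Called members against the control numbered 2 in egg heads by the glial scaling, and 2 in double mutant heads by the neuronal and the glial scaling. These counts pool directions, and they were not set against the share of all probe sets called under the same scaling. By the neuronal scaling Gat was called lower in double mutant heads (-0.3093), and Gad1 and VGAT were called lower in egg heads (-0.3056 and -0.4564). In Su(var)3-9 heads Gat was called lower by the neuronal and the glial scaling (-0.4517 and -0.2771).

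For double mutant against egg heads, the neuronal scaling gave 0.3536 for Gad1 and 0.3534 for VGAT and 4 called members. Leaving out each array gave -0.0198 to 0.0644 for Gad1, -0.0204 to 0.0444 for VGAT, 0.6269 to 0.8433 for Gabat and 1 to 2 called members. Without Su(var)3-9 array 3 and double mutant array 2, Gabat stood at 0.6269 (adjusted p = 0.0601) and 1 member was called. For double mutant against Su(var)3-9 heads, Gabat ranged from -0.0611 to 0.3224 with each array left out. For egg against Su(var)3-9 heads, Gabat lost its call in a fit of only the groups compared (-0.532, adjusted p = 0.0665, 1 member called), without the same 2 arrays (-0.4439, 1 member called) and in 5 of the fits without 1 array (-0.7678 to -0.3842, 1 to 2 members called). The neuronal scaling gave -0.3077 for Gad1, -0.34 for VGAT and 4 called members there, the glial scaling -0.1462 and -0.1785, and array medians -0.059 and -0.0912. The interaction became 0.3515 for Gad1, 0.0721 for Gat and 0.4698 for VGAT by the neuronal scaling, 0.0358, -0.2436 and 0.1541 by the glial scaling (1 called member), and -0.151 for VGAT after cyclic loess. The counts of called members under these alternatives were not set against the share of all probe sets called in the same fit.

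Replicate numbers did not pair the samples: 18 same-numbered pairs correlated at -0.36 to 0.101, 1 of them over 0.1, and 3 of 12 arrays matched best with their own number. With a replicate block the Gabat difference between egg and Su(var)3-9 heads was -0.532 (adjusted p = 0.0649), leaving 1 called member there, and no other call of a member changed. Of 1280 list counts under alternatives, 150 moved by over 1.5 times, 110 of them with scaling.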
